A study of Mus musculus with 12 samples.

Results

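Keratin genes were followed in RNA from the mouse organ of Corti, the strip of cochlea that carries the hair cells, in 9 genes named by symbol, of 55348 genes counted: Krt5, Krt7 and Krt8, which encode type II keratins, and Krt10, Krt14, Krt15, Krt17, Krt18 and Krt19, which encode type I keratins. The set was selected because Krt8 and Krt18 were high in mice that lack both clarins. The values of that genotype therefore chose the genes, and they are given below as a description without a test. Values of the single mutants did not enter the choice and were tested, although they were compared with the same wild-type libraries that had served in it.

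Keratins are the intermediate filament proteins of epithelial cells. A type I and a type II keratin pair to form the filament, which is anchored at desmosomes and hemidesmosomes and gives the cell its resistance to mechanical stress. Krt8 and Krt18 are the primary pair of simple epithelia, in which Krt7 and Krt19 are also made, whereas Krt5, Krt14 and Krt15 mark the basal layer of stratified epithelia, Krt10 its differentiating layers and Krt17 epithelial appendages and injured epidermis. In the organ of Corti the supporting cells are epithelial cells that carry keratin filaments next to microtubules and actin.

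The sensory epithelium was sampled at postnatal day 21 after the stria vascularis and modiolus had been taken off. Each of 4 genotypes had 3 libraries, which makes 12. Wild-type mice were bred apart from the mutants. Clrn1-/- mice lack exon 4 of Clrn1 in every tissue, after deletion by a PGK-cre transgene, and Clrn2-/- mice carry the clarinet allele, a change of a tryptophan codon to a stop codon. The Clrn1-/-Clrn2-/- mice, called double mutants here, came from a cross of both and carry both alleles. Breeding and genotype cannot be told apart in a comparison with wild-type, no source used here says whether a library is from 1 mouse or several, and the p-values measure the spread between these libraries only.

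Levels are given in CPM, that is counts scaled by library size with TMM factors, as mean ± SD of 3 libraries. Libraries held between 30008679 and 41049302 counts on genes. Clrn1 lay between 23.8 and 28.6 CPM in wild-type libraries and between 2.69 and 3.04 CPM in Clrn1-/- libraries, and Clrn2, whose allele is a stop codon, between 1.89 and 3.24 CPM in wild-type and between 1.04 and 1.38 CPM in Clrn2-/- libraries. Clrn2 was also low in Clrn1-/- libraries, at 0.854 to 1.04 CPM, so that its level does not separate the Clrn2-/- libraries from the Clrn1-/- libraries. In the double mutants Clrn1 lay between 1.77 and 2.71 CPM and Clrn2 between 0.921 and 1.18 CPM. Of the genes counted, 19052 passed the filter on low counts and were tested. Among them were 5 of the 9 keratins (Krt7, Krt8, Krt10, Krt18 and Krt19), each of which had at least 36 counts in every wild-type library.

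Krt8 and Krt18, the partners of the simple epithelial filament, are neighbours on chromosome 15. In the GRCm38 build with Gencode M21, Krt8 occupies chr15:101996698-102004482 on the minus strand and Krt18 chr15:102028180-102032027 on the plus strand, so that they point away from each other across 23.7 kb in which no annotated gene lies entirely. Krt5 and the plus-strand gene Krt7 (chr15:101411043-101430313) lie on the same chromosome, and Krt18 is the type I gene among them. The other type I genes are on the minus strand of chromosome 11, Krt10 at chr11:99385254-99389364 and Krt19 at chr11:100140810-100148665, with Krt14, Krt15 and Krt17 beside Krt19. Their promoters are shown because both genes were high in the same libraries. The sequences are those of RefSeq on GRCm38.p6 and run, 5′ to 3′ on the gene's strand, from 230 bases before the RefSeq start to 20 bases from it, which is chr15:102004323-102004572 (minus strand) for Krt8 and chr15:102027986-102028235 (plus strand) for Krt18.
Krt8: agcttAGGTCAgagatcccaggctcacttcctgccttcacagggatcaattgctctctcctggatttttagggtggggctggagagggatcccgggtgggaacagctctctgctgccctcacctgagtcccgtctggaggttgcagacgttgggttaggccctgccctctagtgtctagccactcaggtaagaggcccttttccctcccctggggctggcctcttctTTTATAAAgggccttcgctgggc
Krt18: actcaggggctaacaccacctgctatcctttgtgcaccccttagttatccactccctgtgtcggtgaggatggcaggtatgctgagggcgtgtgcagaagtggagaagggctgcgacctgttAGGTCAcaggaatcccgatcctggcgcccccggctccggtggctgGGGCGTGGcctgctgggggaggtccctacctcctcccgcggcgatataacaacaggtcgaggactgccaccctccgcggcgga
Capitals mark the matches, on either strand, to the letters of a TATA box (TATAAA), a KLF motif (GGGCGTGG) and the nuclear receptor hexamer AGGTCA. With positions counted from the RefSeq start, Krt8 has AGGTCA from position -225 and a TATA box on both strands, in overlapping matches that span the start. Krt18 has AGGTCA from position -108 and GGGCGTGG from position -63. The Gencode gene begins farther upstream than the RefSeq start in both cases. AGGTCA was thus found in both promoters, and in 13.8% of the 27025 promoters of the same length, against 12.5% for TATAAA and 4.97% for GGGCGTGG. The letters TGANTCA of an AP-1 motif (6.82% of promoters), the GC box GGGCGG (33.8%) and CCAAT (34.3%) were in neither. The KLF and AGGTCA motifs were picked after the sequences had been read, and a match is a description of letters.

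Krt8 encodes the type II partner of the pair. Its level was 8.09, 7.18 and 6.98 CPM in the 3 wild-type libraries and 14.6, 14.2 and 14.8 CPM in the Clrn1-/- libraries. It was 15.2, 14.2 and 16.1 CPM in the Clrn2-/- libraries, and 54.7, 56.1 and 56.2 CPM in the double mutants. Every library of either single mutant was above every wild-type library and under every double mutant library, while both single mutants shared 1 range. Krt8 was 1.96-fold higher in Clrn1-/- than in wild-type (log2 fold change 0.97 ± 0.069, SE; 14.5 ± 0.315 against 7.42 ± 0.592 CPM, n = 3 each; adjusted p = 7.64e-08, edgeR quasi-likelihood test). In Clrn2-/- it was 2.05-fold higher (log2 fold change 1.03 ± 0.069, SE; 15.2 ± 0.922 CPM; edgeR adjusted p = 2.49e-07). The double mutants, by which the gene was chosen, had 55.7 ± 0.800 CPM, which is 7.51-fold the wild-type level, 3.83-fold that of Clrn1-/- and 3.67-fold that of Clrn2-/- in the fit.

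Krt18, the type I partner, followed the same order of genotypes. It measured 8.51, 9.26 and 7.84 CPM in wild-type libraries, 13.2, 12.7 and 13.9 CPM in those of Clrn1-/- and 13.4, 13.5 and 14.6 CPM in Clrn2-/-. The double mutant libraries had 38.4, 37.5 and 36.8 CPM. Again the single mutants overlapped each other and lay apart from wild-type below and the double mutants above. The increase was 1.56-fold in Clrn1-/- (log2 fold change 0.64 ± 0.072, SE; edgeR adjusted p = 1.07e-05) and 1.62-fold in Clrn2-/- (log2 fold change 0.69 ± 0.072, SE; edgeR adjusted p = 1.52e-05). Without wild-type replicate 3 the log2 fold change in Clrn1-/- was 0.58, just under the minimum of 0.585 (1.5-fold) for a call, with an adjusted p of 4.64e-05. In the double mutants the mean was 37.6 ± 0.831 CPM, 4.40-fold the wild-type mean of 8.54 ± 0.708 CPM.

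Krt19, a small type I keratin of simple epithelia, moved less. Its level was 9.36, 7.89 and 9.34 CPM in wild-type and 9.78, 10.5 and 11.4 CPM in Clrn1-/-, against 12.6, 11.7 and 13.9 CPM in Clrn2-/- and 14.6, 15.4 and 15.2 CPM in the double mutants. The 4 genotypes did not overlap, in the order wild-type, Clrn1-/-, Clrn2-/- and double mutant. The change against wild-type was 0.25 on the log2 scale in Clrn1-/- (edgeR adjusted p = 0.0490) and 0.52 in Clrn2-/- (edgeR adjusted p = 9.88e-04), both short of 1.5-fold. The adjusted p in Clrn1-/- ranged from 0.0204 to 0.182 over the alternatives, the highest without wild-type replicate 2, so that it rests on the setting. Clrn1-/- was at 0.828-fold the level of Clrn2-/- (log2 difference -0.27, 95% interval -0.46 to -0.08; edgeR adjusted p = 0.0422). That adjusted p ranged from 0.0266 to 0.158 over the alternatives and exceeded 0.05 in 7 of them, with the 2 genotypes alone and without any 1 of Clrn1-/- replicates 1 and 2, Clrn2-/- replicates 1 and 3 and double mutant replicates 2 and 3. The double mutant level of 15.1 ± 0.413 CPM was 1.70-fold that of wild-type (8.86 ± 0.841 CPM).

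**Figure D1:**
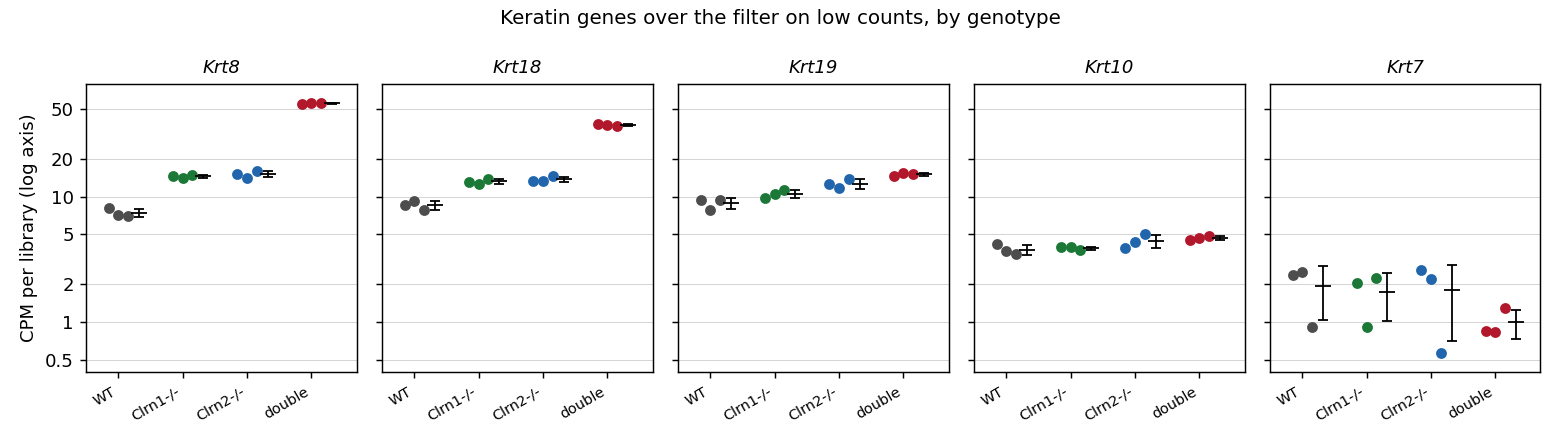
Level of the 5 keratin genes over the filter in each of the 12 libraries, in CPM on a log axis, with genotypes along the horizontal axis; points are libraries, and bars beside them the mean and SD of 3. For Krt8 the double mutant libraries lie between 54.7 and 56.2 CPM and all others at or under 16.1 CPM, whereas the libraries of all genotypes overlap for Krt7.

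A gene was called where its adjusted p did not exceed 0.05 and it changed at least 1.5-fold. By this measure 2 of the 9 keratins (Krt8 and Krt18) rose in Clrn1-/-, where 3.52% of all tested genes rose, and the same 2 rose in Clrn2-/-, where 1.24% did. These comparisons share the wild-type libraries and are no independent repeats of each other. Between Clrn1-/- and Clrn2-/-, where 4.73% of tested genes were called in either direction, no keratin was called by edgeR, limma-voom or DESeq2, and by each tool 1 had an unadjusted p under 0.05 (Krt19 by edgeR). The log2 difference of Clrn1-/- minus Clrn2-/- was -0.06 for Krt8 (95% interval -0.20 to 0.07) and -0.06 for Krt18 (95% interval -0.20 to 0.09). As a description, 3 keratins (Krt8, Krt18 and Krt19) were at least 1.5-fold above wild-type in the double mutants with libraries that did not overlap, a state that 6.48% of tested genes shared. Krt8 and Krt18 were so against Clrn1-/- (5.58% of tested genes) and against Clrn2-/- (4.63%). Since the double mutants chose the genes, these counts describe the choice.

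Set side by side on the log2 scale, the Krt8 changes of the single mutants add to 2.01 and the double mutants changed by 2.91. For Krt18 the values are 1.33 and 2.14. Krt19 had 0.78 against 0.77, and Krt10 0.28 against 0.31. Krt8 and Krt18 thus exceeded the sum of both single changes by 0.90 and 0.81, while Krt19 differed from it by -0.01 and Krt10 by 0.03. Krt7 had -0.25 against -0.93, a difference of -0.68 the other way. This is a description of the libraries that chose the genes and was not tested.

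Krt10, a type I keratin of differentiating epidermis, averaged 3.77 ± 0.355 CPM in wild-type, against 3.89 ± 0.110 CPM for Clrn1-/-, 4.43 ± 0.542 CPM for Clrn2-/- and 4.67 ± 0.148 CPM for double mutants. Single mutant and wild-type libraries overlapped, with log2 fold changes of 0.05 in Clrn1-/- (edgeR adjusted p = 0.804) and 0.23 in Clrn2-/- (edgeR adjusted p = 0.212). The 3 double mutant libraries (4.52, 4.67 and 4.82 CPM) lay above the 3 of wild-type (4.16, 3.67 and 3.47 CPM).

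Krt7, a type II keratin of simple and glandular epithelia, varied widely within a genotype. It was at 2.39, 2.49 and 0.911 CPM in wild-type, 2.06, 0.906 and 2.23 CPM in Clrn1-/-, 2.61, 2.20 and 0.562 CPM in Clrn2-/- and 0.852, 0.832 and 1.29 CPM in the double mutants. In each of the 3 other genotypes 1 library was low, and in the double mutants all 3 were. The log2 fold change was -0.16 in Clrn1-/- (SE 0.447; edgeR adjusted p = 0.838) and -0.10 in Clrn2-/- (SE 0.446; edgeR adjusted p = 0.918), and -0.93 in the double mutants (SE 0.483).

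The stria vascularis, an epithelium, was dissected away. Of 10 strial markers, 5 (Dct, Kcne1, Kcnq1, Esrrb and Tyr) were lower in every library with low Krt7 than in every library with high Krt7, and the other 5 (Kcnj10, Slc12a2, Pmel, Atp1b2 and Lrp2) overlapped. The genes Kcne1 and Kcnq1, which encode the potassium channel subunits of strial marginal cells, and Dct, a pigment gene of strial melanocytes, are on the list of strial markers and were picked from it after their values had been seen. In the 6 libraries with Krt7 at or under 1.29 CPM, Dct lay between 5.38 and 15.3 CPM and Kcne1 between 1.49 and 3.84 CPM. In the 6 libraries with Krt7 of at least 2.06 CPM, Dct lay between 31.0 and 60.5 CPM and Kcne1 between 6.92 and 11.7 CPM. The same division held for Kcnq1, with 4.58 to 6.19 CPM against 7.53 to 11.1 CPM. Within wild-type the sum over the 10 strial genes was lowest in the library with low Krt7 (920 CPM, against 1149 and 1243 CPM). The same held in Clrn1-/- (1065 against 1220 and 1144 CPM) and in Clrn2-/- (917 against 1052 and 1044.5 CPM). Across genotypes the sum did not follow the division, as the double mutants, all low for Krt7, had 1099 to 1175 CPM. The part of strial cells in the Krt7 values was not tested.

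**Figure D2:**
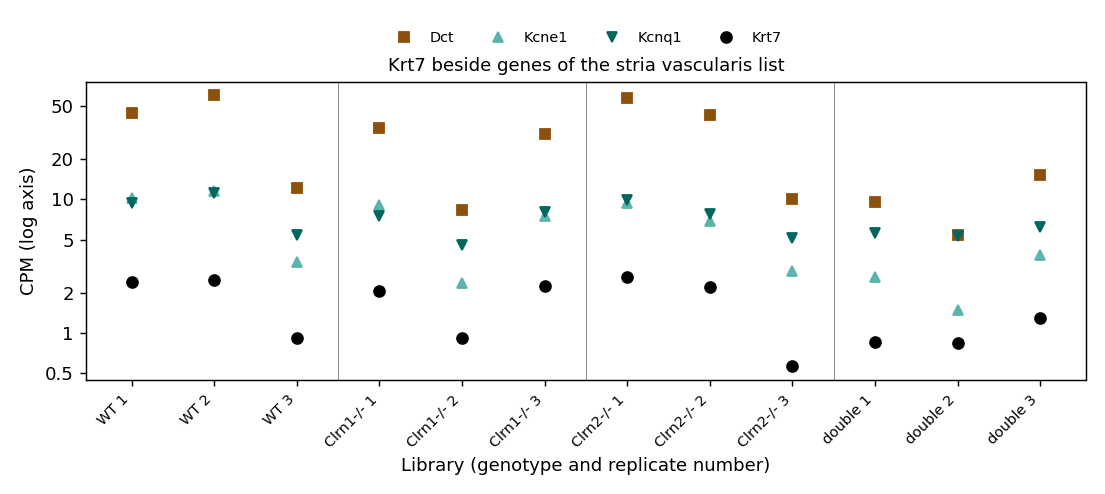
CPM of Krt7 and of the strial genes Dct, Kcne1 and Kcnq1 in each of the 12 libraries, on a log axis, with libraries along the horizontal axis grouped by genotype. Wild-type replicate 3, Clrn1-/- replicate 2, Clrn2-/- replicate 3 and all 3 double mutant libraries are low for all 4 genes.

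The keratins of stratified epithelium had few counts. Krt5 had 0 to 5 counts in a library, Krt14 0 to 11, Krt15 0 to 8 and Krt17 0 to 7, so all 4 were under the filter and none was tested. Over its 3 libraries Krt14 had 10 counts in wild-type and 21 in Clrn1-/-, against 2 in Clrn2-/- and 1 in the double mutants. Krt15 had 11, 13, 5 and 1 counts in the same order, and Krt5 had 1, 8, 3 and 1. Krt17 had 0 counts in every wild-type library, which allows up to 0.0759 to 0.0843 CPM per library (3 counts, for counting error only), with 11 in Clrn1-/-, 3 in Clrn2-/- and 13 in the double mutants. Thus the double mutants, in which Krt8 was highest, had at most 1 count of Krt5, Krt14 or Krt15 in any library. When the filter was dropped, Krt17 was called in Clrn1-/- against wild-type and Krt14 in Clrn1-/- against Clrn2-/-.

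**Figure D3:**
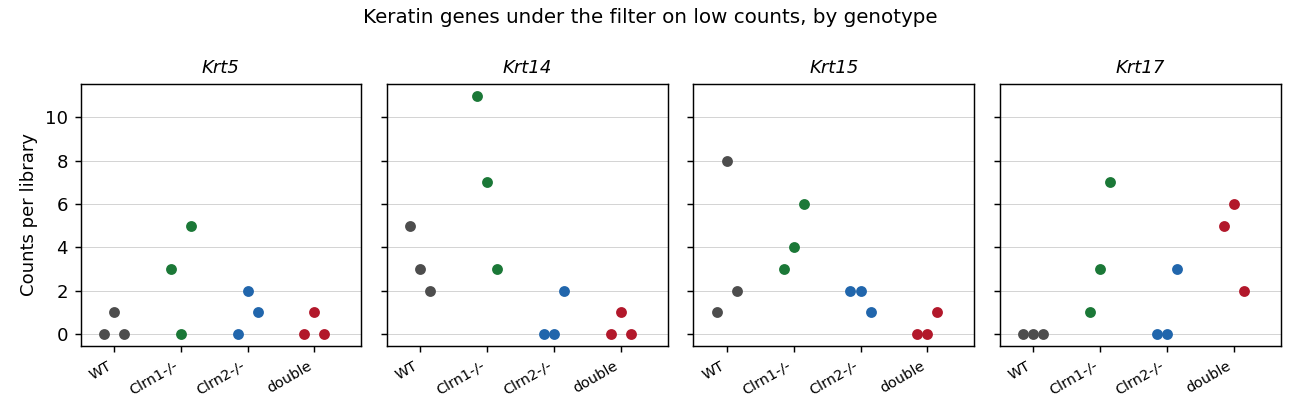
Counts per library of the 4 keratin genes under the filter on low counts, by genotype; each point is a library. No library exceeds 11 counts, and Krt17 has 0 in all wild-type libraries.

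Levels of different genes were compared per length, as CPM per kb of the gene's joined exons. In wild-type the order was Krt18 (5.94 ± 0.493 CPM per kb), Krt19 (4.78 ± 0.453), Krt8 (3.79 ± 0.302), Krt10 (1.78 ± 0.168) and Krt7 (0.274 ± 0.126), and the libraries of neighbours in this order did not overlap. The other 4 were under 0.06 CPM per kb. In Clrn1-/- Krt8 (7.43 ± 0.161 CPM per kb) came second after Krt18 (9.24 ± 0.408), ahead of Krt19 (5.68 ± 0.433), again without overlap. In Clrn2-/- Krt18 led with 9.61 ± 0.453 CPM per kb, and Krt8 (7.75 ± 0.471) and Krt19 (6.87 ± 0.603) overlapped and changed places when the longest transcript was used as the length. In the double mutants Krt8 led with 28.4 ± 0.408 CPM per kb over Krt18 (26.1 ± 0.578) and Krt19 (8.13 ± 0.223), all apart. Krt8 thus stood below Krt18 and Krt19 in wild-type, below Krt18 alone in Clrn1-/-, and at the top in the double mutants.

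The ratio within the pair also set the single mutants apart from wild-type and from the double mutants. The single mutants overlapped each other, with 0.783 to 0.819 in Clrn1-/- and 0.776 to 0.834 in Clrn2-/-. Krt8 per length was 0.640 ± 0.065 of Krt18 in wild-type, 0.805 ± 0.019 in Clrn1-/- and 0.807 ± 0.029 in Clrn2-/-. The highest wild-type library was at 0.698 and the lowest single mutant library at 0.776, so they did not overlap. A two-sided exact permutation test gave p = 0.1 for either single mutant against wild-type, the smallest it can give with 3 libraries against 3. Krt8 exceeded Krt18 in the double mutants alone, by a ratio of 1.09 ± 0.038. Both genes together made up 58.3% ± 2.12 of the summed CPM per kb of the 9 keratins in wild-type. That share was 67.4% ± 0.697 for Clrn1-/-, 65.2% ± 0.548 for Clrn2-/- and 83.8% ± 0.394 for double mutants. The sum of the type II keratins was 0.322 ± 0.020 of that of the type I keratins in wild-type, against 0.453 ± 0.014 for Clrn1-/-, 0.431 ± 0.020 for Clrn2-/- and 0.782 ± 0.019 for double mutants.

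**Figure D4:**
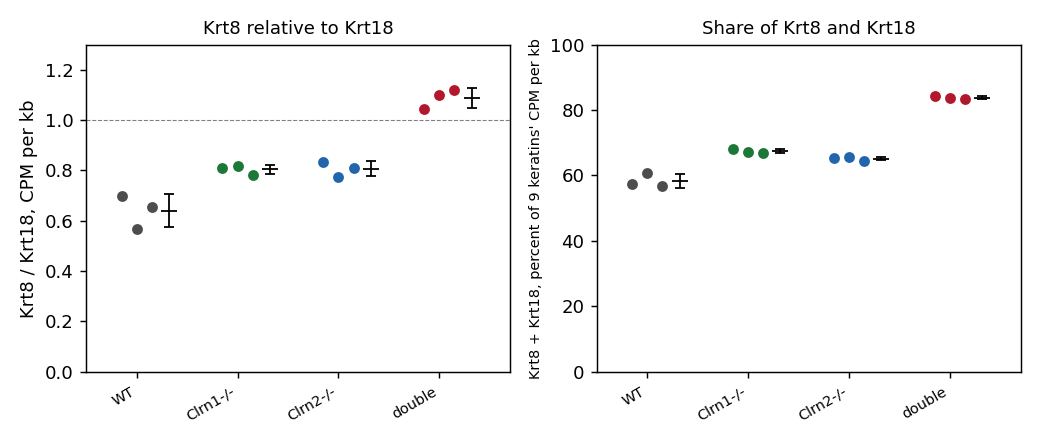
Left, ratio of Krt8 to Krt18 in CPM per kb; right, Krt8 and Krt18 together as a percentage of the summed CPM per kb of the 9 keratin genes, both with genotypes along the horizontal axis; points are libraries and bars the mean and SD of 3. The dashed line marks equal levels, which only the double mutant libraries (1.05 to 1.12) exceed.

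Krt8 shares sequence with other loci. Of its stretches of 100 bases, the read length, 17.1% also occur in transcripts of Krt8-ps, a processed pseudogene on another chromosome, or of Gm36026, a noncoding RNA on the opposite strand. Krt8-ps itself had 2 to 6 counts in wild-type libraries, 8 to 15 in either single mutant and 41 to 76 in the double mutants, which is 0.694% to 4.03% of the Krt8 counts of the same library. Shares were 3.81% for Krt5 and 2.78% for Krt14, and 0% for the other keratins of the set. Genes on the opposite strand overlap Krt5, Krt7, Krt8 and Krt10, and the counts used were strand-specific.

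The tested genes around the pair changed less than Krt8 and Krt18 did, with log2 fold changes between -0.35 and 0.42. Within 250 kb of the pair there are 24 other genes, of which the 12 on the side of Krt8 away from Krt18 are mostly other type II keratin genes, with at most 11 counts in a library. Of the 24, 10 were tested in the double mutants against wild-type, and 0 were called by edgeR, limma-voom or DESeq2. Over all tested genes edgeR called 5.88% higher and 4.02% lower, so 0 of 10 is near the overall share. By each tool 5 had an unadjusted p under 0.05 and 3 an adjusted p of at most 0.05. With edgeR these 3 were Eif4b, Csad and Rarg, all higher. The nearest tested gene, Eif4b, which encodes a translation initiation factor, was at 267 against 245 CPM (log2 fold change 0.12 ± 0.043, SE). Next to it Tns2, a focal adhesion protein gene, differed by -0.01 ± 0.060 (log2, SE). The largest change with an adjusted p under 0.05 was that of Rarg, a retinoic acid receptor gene, with 0.39 ± 0.051 (log2, SE; edgeR adjusted p = 1.80e-05), short of 1.5-fold.

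**Figure D5:**
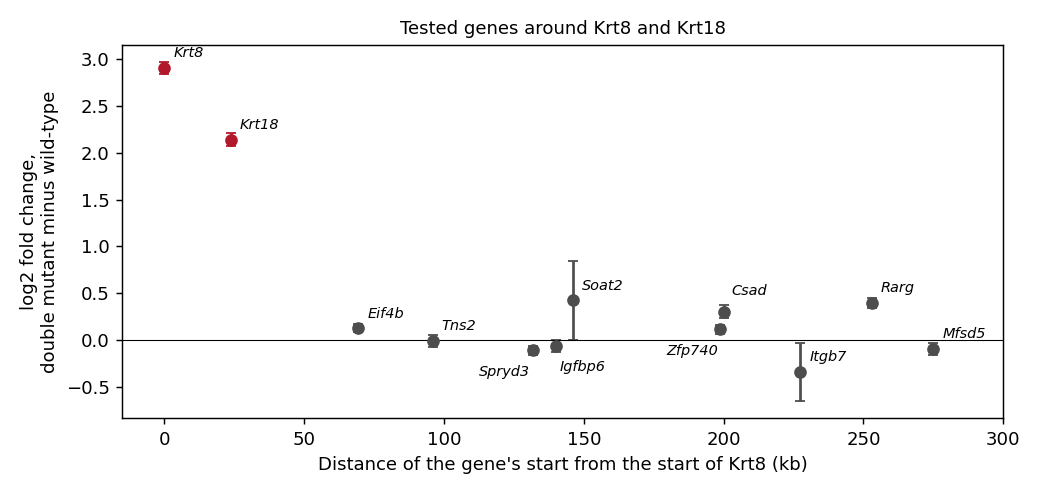
Log2 fold change of the double mutants against wild-type, with SE, for Krt8, Krt18 (red) and the 10 other tested genes within 250 kb (grey), against the distance of each gene's start from the start of Krt8 in kb. Krt8 and Krt18 stand at 2.91 and 2.14, and the other 10 between -0.35 and 0.42.

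Outside the set the series holds 46 other keratin genes, of which 15 had no count in any library and 40 were under 1 CPM in every genotype. Of the 7 that were tested, 2 were called in the double mutants against wild-type, both higher, where 5.88% of all tested genes were higher and 4.02% lower. The first was Krt8-ps (log2 fold change 3.89 ± 0.387, SE). Of its stretches of 100 bases 37.1% also occur in Krt8, so that its reads cannot be fully told apart from those of Krt8, whose values chose the set, and it is given without a test. The other was Krt90 (log2 fold change 1.83 ± 0.649, SE; edgeR adjusted p = 0.0368), which had 2 to 4 counts in wild-type and 7 to 12 in double mutant libraries and was named after its values were seen. The Krt90 call was lost with unstranded counts, with the replicate number as a block and with the 2 genotypes alone. It was also lost without wild-type replicate 2 or wild-type replicate 3. Krt90 was also called higher in Clrn1-/- (log2 fold change 2.06, edgeR adjusted p = 0.0224) and in Clrn2-/- (log2 fold change 2.16, edgeR adjusted p = 0.0292). It had 6 to 21 counts in Clrn1-/- and 8 to 18 in Clrn2-/- libraries. Its wild-type counts lay under the filter's minimum count of 10, so Krt90 was tested only because of its counts in mutant libraries. A higher level than in wild-type is partly built into these calls and that of the double mutants, and no conclusion is drawn from them. Krt222 had 62.3 ± 3.10 CPM in the double mutants and 87.2 ± 5.97 CPM in wild-type (log2 fold change -0.49 ± 0.057, SE; edgeR adjusted p = 5.79e-06), a change under 1.5-fold. Krt23, a type I keratin, was at 3.10 ± 0.432 CPM in the double mutants against 2.41 ± 0.299 CPM in wild-type (edgeR adjusted p = 0.115). Its log2 difference of the double mutants from Clrn1-/- was 0.59 (edgeR adjusted p = 0.0194) and that from Clrn2-/- was 0.90 (edgeR adjusted p = 0.00194). Krt28, Krt80 and Krt87 had log2 fold changes of -0.33, -0.10 and -0.39 against wild-type and were not called, whereas Krt87 was called lower in the double mutants than in Clrn1-/- (log2 fold change -0.64, edgeR adjusted p = 0.0397).

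Keratin filaments need linkers to the cell surface. Of 25 tested genes of desmosomes, hemidesmosomes and other keratin-binding proteins, 9 rose in the double mutants and 0 fell. Over all tested genes 5.88% rose there and 4.02% fell, shares that apply to the lists below as well. The median log2 fold change of the linkers was 0.32 against 0.001 for all tested genes. Without the fold minimum 14 were higher and 1 was lower. The largest increases were those of Pof1b, which encodes an epithelial actin-binding protein, from 4.60 ± 0.469 to 16.3 ± 1.94 CPM (log2 fold change 1.83, edgeR adjusted p = 2.34e-08), of Fam83g from 2.71 ± 0.219 to 6.73 ± 0.683 CPM, and of Sfn, the 14-3-3 sigma protein of epithelia, from 8.73 ± 0.256 to 20.9 ± 0.440 CPM. Desmoplakin (Dsp), which ties keratin filaments to the desmosomal plaque, was also called, at 32.7 ± 0.376 against 15.3 ± 0.598 CPM. Of the hemidesmosome genes, Itga6 was at 174 against 147 CPM, Cd151 at 114 against 91.3 CPM and Itgb4 at 81.9 against 80.9 CPM. Plec was at 263 against 284 CPM and Dst at 958 against 1228 CPM. None of these passed the test with 1.5-fold. In the single mutants 1 linker gene was called higher in Clrn1-/- (Fam83g) and 1 in Clrn2-/- (Pof1b). Over all tested genes 3.52% rose in Clrn1-/- and 1.24% in Clrn2-/-, so 1 of 25 is near these shares. They apply to the single mutant counts of the lists below as well.

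Other intermediate filament genes were divided. Of 17 tested, 2 rose and 4 fell in the double mutants, and the median log2 fold change was -0.09. Vim, which encodes vimentin of mesenchymal and supporting cells, went from 246 ± 7.11 to 377 ± 11.02 CPM (log2 fold change 0.61, edgeR adjusted p = 2.17e-08), and Prph, peripherin of neurons, from 4.71 ± 1.58 to 9.54 ± 0.423 CPM. Of the other neuronal filament genes, Nefm went from 2472 to 1685 CPM and was not called. Those called lower were Ina, from 388 ± 13.2 to 233 ± 4.20 CPM, Nefl, from 2490 ± 156 to 1618 ± 23.9 CPM, and Nefh, from 2889 ± 114 to 1880 ± 38.7 CPM. The fourth was Bfsp2, a filament gene of the lens, at 1.79 against 2.98 CPM with overlapping libraries. With library size alone in place of TMM scaling, 3 genes of this list were called in all. Of the neuronal markers, Nefl and Nefm are on both lists, and without them the list summed to 2669 to 2704 CPM in the double mutants and 3925 to 4306 CPM in wild-type. Of all 10 neuronal markers 2 were called lower and 1 higher, and their part in these values was not tested.

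Of 28 tested genes for transcription factors known to act on keratin genes, 10 rose and 0 fell in the double mutants (median log2 fold change 0.47). The largest changes among those of at least 1 CPM were Fosb, from 0.555 ± 0.300 to 4.98 ± 1.79 CPM (log2 fold change 3.15, edgeR adjusted p = 3.46e-04), Fos, from 4.52 ± 0.778 to 17.6 ± 1.99 CPM, both subunits of AP-1, and Elf3, an epithelial ETS factor, from 2.65 ± 0.166 to 5.97 ± 0.585 CPM. Grhl2, which maintains epithelial gene expression, also rose, from 9.96 ± 0.946 to 20.4 ± 1.13 CPM. Klf4 (30.3 against 26.4 CPM) and Trp63, the master factor of stratified epithelium (0.325 against 0.281 CPM), were not called. In the single mutants 3 of the 28 rose in Clrn1-/- and 4 rose and 1 fell in Clrn2-/-. Fos was at 10.4 CPM in Clrn1-/- (log2 fold change 1.20, edgeR adjusted p = 7.96e-05) and 9.11 CPM in Clrn2-/- (log2 fold change 1.02, edgeR adjusted p = 8.44e-04).

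Most general markers of epithelial cells moved with Krt8 and Krt18. Over all tested genes 5.88% were called higher in the double mutants and 4.02% lower. Of the 15 markers 14 were higher there, all but Cdh1 (178 against 150 CPM), and 0 lower, by a median log2 fold change of 1.09. Among them Esrp1, an epithelial splicing factor, went from 15.3 ± 1.90 to 47.6 ± 3.67 CPM (log2 fold change 1.63, edgeR adjusted p = 8.68e-09), and Epcam, the epithelial adhesion molecule, from 59.9 ± 5.99 to 174 ± 2.88 CPM (log2 fold change 1.54, edgeR adjusted p = 8.99e-10). In Clrn1-/- 4 of the 15 rose and in Clrn2-/- 3 did, Epcam in both. The summed level of the list was 461 to 501 CPM in wild-type, 578 to 624 CPM in Clrn1-/-, 576 to 664 CPM in Clrn2-/- and 936 to 981 CPM in the double mutants. As a ratio of means to wild-type this is 1.24 in Clrn1-/-, 1.29 in Clrn2-/- and 1.97 in the double mutants, beside 1.96, 2.05 and 7.51 for Krt8 and 1.55, 1.62 and 4.40 for Krt18. In bulk RNA of this kind a change in the number of cells of a type and a change in RNA per cell cannot be told apart. The part of epithelial cell number in the keratin levels was not tested.

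Markers of cell types in and around the tissue were read beside the keratins. Supporting cell markers rose in 9 of 18 cases and fell in 1 in the double mutants (median log2 fold change 0.49), with a summed level of 3348 to 3689 CPM in wild-type and 6812 to 7370 CPM in the double mutants, which is 2.04-fold by the means. Without Ceacam16 (3962 against 1348 CPM) it was 1.47-fold. Otoa and Ceacam16, proteins of the tectorial membrane and its attachment, rose by 1.59 and 1.56 on the log2 scale and Otog by 1.15, whereas Prox1, a transcription factor of supporting cells, was at 58.5 against 104 CPM. Hair cell markers numbered 4 higher (Chrna9, Tmc1 and Ocm among them) and 2 lower (Gfi1 among them) of 16, with sums of 572 to 630 CPM in wild-type and 719 to 746 CPM in the double mutants.

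Of the list for stratified epithelium of skin 6 of 16 genes were tested, and 3 rose in each mutant against wild-type. In the double mutants these were Sprr1a, from 0.136 ± 0.053 to 6.09 ± 1.01 CPM (log2 fold change 5.47, edgeR adjusted p = 1.11e-08), a cornified envelope precursor also known from injured cells, Cdsn, from 0.587 ± 0.174 to 3.08 ± 0.260 CPM, and Lypd3, from 0.837 ± 0.143 to 2.93 ± 0.734 CPM. The defining markers were at or near 0, with 0 counts of Flg in all 12 libraries, at most 3 of Ivl, and Lor between 0.412 and 0.885 CPM, while Sbsn lay between 2.77 and 4.25 CPM. The list summed to 5.42 to 6.85 CPM in wild-type, 8.38 to 9.43 CPM in Clrn1-/-, 8.39 to 10.4 CPM in Clrn2-/- and 16.2 to 17.5 CPM in double mutant libraries. The double mutant sum was 2.77-fold that of wild-type, or 1.81-fold without Sprr1a. Its part in the keratin values was not tested. Of 6 tested middle ear and respiratory genes 0 rose and 2 fell in the double mutants, Cyp2f2 from 14.4 to 5.57 CPM and Foxj1 from 41.4 to 25.2 CPM. In Clrn1-/- 3 of these 6 rose and 1 fell, with a summed level of 86.7 to 130 CPM against 65.3 to 72.7 CPM in wild-type. Without Bpifa1 (59.9 against 9.88 CPM) the sum was lower in Clrn1-/-, at 45.2 to 54.2 CPM against 56.3 to 61.7 CPM. Their part in the Clrn1-/- keratin levels was not tested.

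The other lists gave these counts in the double mutants. Strial markers were higher in 2 cases (Pmel and Kcnj10) and lower in 3 (Esrrb, Kcne1 and Dct) of 10, skeletal muscle genes lower in 2 (Myl1 and Mylpf) of 9, and bone and cartilage genes higher in 1 (Ibsp) of 9. Neuronal markers were higher in 1 case (Gap43) and lower in 2 (Snap25 and Nefl) of 10. Macrophage markers were higher in 6 of 10, among them Aif1, Cd68 and Adgre1, with sums of 144 to 183 CPM in wild-type and 228 to 268 CPM in the double mutants. Muscle genes summed to 40.0 to 46.2 CPM in Clrn1-/- and 12.4 to 14.8 CPM in wild-type, and averaged 10.97 CPM in Clrn2-/-, where Krt8 was at 15.2 CPM. Myl1 alone (39.7 against 9.48 CPM) made the Clrn1-/- sum higher, as without it the sum was 3.32 to 3.60 CPM against 3.56 to 4.83 CPM in wild-type.

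Among 12450 genes outside the set with a mean of at least 5 CPM over the 12 libraries, those whose log2 CPM over the 12 libraries, centred on its mean, lay closest to that of Krt8 included Hsd17b6 (root mean square difference 0.204), Lgals3 (0.229), Plet1 (0.238) and Lgr6 (0.270). These 4 were closer to Krt8 than Krt18 was (0.281). Lgals3, which encodes the lectin galectin-3, was at 2.91 CPM in wild-type, 7.59 CPM in Clrn1-/-, 7.54 CPM in Clrn2-/- and 24.5 CPM in the double mutants. Hsd17b6, a steroid dehydrogenase gene, was at 8.52, 16.5, 14.4 and 63.1 CPM in the same order. For Krt18 the closest were Lgr6, a receptor for R-spondins (0.154), Bcam, a laminin-binding adhesion molecule (0.162), Mal2 (0.165), Tspan8 (0.192) and Pof1b (0.195). Bcam, the most abundant of these, was at 231, 330, 312 and 844 CPM. These distances include the double mutant libraries and describe the pattern by which Krt8 and Krt18 were chosen.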

How the data were processed

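Organ of Corti RNA of 4 genotypes was sequenced at postnatal day 21, with 3 libraries each, grouped by the genotype in their labels. The authors made strand-specific libraries from polyadenylated RNA and deposited raw counts per gene, which STAR had produced on GRCm38.p6 with Gencode M24, without normalization. Of the 3 count columns, the one of the library kit's strand was used, which held 95.2% to 95.6% of stranded counts. Reads not assigned to a gene (13.5% to 15.8%) were left out. Depth was 30008679 to 41049302 counts.

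The counts went into edgeR 4.0.16 (R 4.3.3). The filter was filterByExpr (minimum count 10), libraries were scaled by TMM (factors 0.963 to 1.02) and all 12 fitted with genotype alone. The quasi-likelihood test was adjusted by Benjamini-Hochberg over 19052 genes, with the thresholds for a call at 0.05 and 1.5-fold. Genes under the filter are given as counts or scaled CPM. Standard errors were derived from the test statistic. The script was tested on simulated counts.

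The 9 keratins, the gene lists and the rule for named genes were chosen with earlier results of these data known. Named were all 9, every other keratin of at least 1 CPM in a genotype, per list up to 3 called genes per direction with the largest change in the double mutants, libraries that do not overlap and at least 1 CPM, and the 5 genes most like Krt8 and Krt18. Some genes that the rule names are not reported here. Genes outside this rule (Krt90, Dsp, Grhl2, Bfsp2, Nefm, Itga6, Cd151, Itgb4, Plec, Dst, Klf4, Trp63, Cdh1, Flg, Ivl, Lor, Sbsn, Kcne1, Kcnq1, Dct, Tyr, Myl1 in Clrn1-/-, Bpifa1 and the neighbours of Krt8) were named after their values were seen. The lists cover keratin linkers, other intermediate filaments, keratin regulators and markers of epithelial cells, supporting cells, hair cells, stratified epithelium of skin, middle ear and respiratory epithelium, stria vascularis, skeletal muscle, bone and cartilage, neurons and macrophages. Tests of the 9 keratins use comparisons without the double mutants. Sums of marker lists without the gene of largest change were added after seeing the data.

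Coordinates and exon lengths came from Gencode M21, an earlier release on the same build; 53238 symbols matched 1 gene of it, and all 9 keratins did. Promoters came from RefSeq, which held 6 of the 9.

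Alternatives were limma-voom (limma 3.58.1), DESeq2 1.42.0, library size alone, no filter, unstranded counts, the replicate number as a block, the 2 genotypes alone, no fold minimum, each library left out, and the longest transcript as length. The meaning of the replicate numbers is not stated. Deviations of same-numbered libraries from their group means correlated between -0.277 and 0.301 and above 0.1 in 7 of 18 pairs. Each of the 3 wild-type and Clrn1-/- pairs was above 0.1 (0.269, 0.126 and 0.105). Those values lie within the range over all pairs, so they cannot show whether the libraries are paired. The block changed no keratin call in that comparison.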

Additional observations from a re-analysis of the deposited data

Results flagged for a closer look

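Krt19 was flagged because it differed between the single mutants. Its log2 fold change of Clrn1-/- minus Clrn2-/- was -0.27 (10.5 ± 0.802 against 12.7 ± 1.12 CPM, n = 3 each; edgeR adjusted p = 0.0422). All 3 Clrn1-/- libraries (9.78, 10.5 and 11.4 CPM) were lower than all 3 Clrn2-/- libraries (12.6, 11.7 and 13.9 CPM), and the change was short of 1.5-fold. With the 2 genotypes alone the adjusted p was 0.0526, and with a library left out it ranged from 0.0266 to 0.158, at 0.145 without Clrn1-/- replicate 1, 0.109 without Clrn1-/- replicate 2, 0.0614 without Clrn2-/- replicate 1 and 0.158 without Clrn2-/- replicate 3.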

How the results depend on the processing

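Of the counts given, 14 changed by over 1.5 times under an alternative and 203 did not. Of the log2 fold changes of single keratins and the rank of Krt8 in wild-type, 582 kept their direction and side of the threshold or moved within the spread. The latter include changes of sign, as for Krt7 in Clrn1-/- from -0.16 to 0.17 without Clrn1-/- replicate 2. A further 3 gained a call without the fold minimum (Krt19), 1 lost it (Krt18 without wild-type replicate 3) and 0 reversed beyond the spread. Keratin genes called in Clrn1-/- against wild-type numbered 1 to 2 with a library left out, against 2 with all. Between Clrn1-/- and Clrn2-/- the count of 0 became 1 with no filter (Krt14) and 1 with no fold minimum (Krt19). Keratins at least 1.5-fold from wild-type in the double mutants numbered 6 in place of 3 with no filter, and 4 in place of 2 against Clrn1-/-, as genes of few counts entered. Other keratins called in the double mutants fell from 2 to 1 with unstranded counts and with the 2 genotypes alone, and numbered 1 to 3 with a library left out (1 without wild-type replicate 2 or 3). The fit with the replicate number as a block also gave 1 there, where same-numbered libraries correlated at 0.255, -0.277 and 0.301. It changed none of the other counts by over 1.5 times. Without a fold minimum 15 linkers in place of 9, 22 regulators in place of 10 and 14 other intermediate filaments in place of 6 passed, as is built into that setting. Library size alone left 3 other intermediate filaments, and the cause was not tested.

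With 3 libraries a genotype, an exact permutation test of a single value cannot go below 0.1. Counts of at most 11 per library limit Krt5, Krt14, Krt15 and Krt17.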
